A study of Mus musculus with 6 samples.

Results

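The genes described here were 37 members of the ER stress response, chosen by symbol: ER-resident chaperones and disulfide isomerases, the sensors and transcription factors of the unfolded protein response, components of ER-associated degradation, subunits of the translocon, and targets of the transcription factor ATF4. All 37 were found among the 55291 genes of the count table. The rule used no measured value, although the list was drawn up with earlier results of these data known. They were measured by bulk MARS-seq, an RNA-seq method that counts the 3′ ends of transcripts, in bone marrow derived macrophages (BMDMs) of 3 WT and 3 PYK2 KO mice of the C57BL/6 strain. PYK2, encoded by Ptk2b, is a non-receptor tyrosine kinase related to FAK, and the KO animals lacked it in the whole body, not in macrophages alone. Cells of both genotypes were grown for 7 days with L929-conditioned medium as the source of M-CSF and received no other treatment, and the labels give no age for the mice. The comparison asks how untreated macrophages without PYK2 differ from WT cells.

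Proteins that enter the secretory pathway are folded in the ER by chaperones and disulfide isomerases, and those that fail to fold are sent back to the cytosol and degraded. When unfolded proteins build up, the sensors IRE1 (Ern1), ATF6 and PERK (Eif2ak3) start the unfolded protein response: IRE1 splices Xbp1 mRNA, ATF6 is cleaved into a transcription factor, and PERK phosphorylates eIF2α, which lowers general translation and raises that of ATF4. ATF4, which amino acid shortage and other stresses also induce, drives genes for amino acid supply and, through CHOP (Ddit3), genes linked to cell death. In macrophages these branches support secretion and also modulate inflammatory cytokine output.

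Promoter sequences of the members are shown because they hold letters known as sites of the branches named above. Windows from 250 bases before to 50 bases after the annotated start, read 5′ to 3′ on the gene's strand, were taken from RefSeq (GRCm38.p6) and were found for 32 of the 37 members. Atf6, Derl1, Hyou1, Manf and Sec61a1 had no entry. The ER stress response element ERSE (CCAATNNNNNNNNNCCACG, searched on both strands) is the site known to be used by ATF6 and XBP1. It was found in 8 of 32 members (25.0%) and in 37 of 27025 genes with a window (0.137%). In the lines below capitals mark the match, and a match beginning with CGTGG lies on the opposite strand.
Hspa5: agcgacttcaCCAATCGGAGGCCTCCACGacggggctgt
Calr: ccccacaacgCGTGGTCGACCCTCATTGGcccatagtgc
Hsp90b1, upstream match: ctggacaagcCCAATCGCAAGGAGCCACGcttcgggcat
Hsp90b1, downstream match: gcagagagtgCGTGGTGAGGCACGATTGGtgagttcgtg
Canx: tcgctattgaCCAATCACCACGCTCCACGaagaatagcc
Creld2: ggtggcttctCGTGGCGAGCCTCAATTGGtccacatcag
Dnajc3: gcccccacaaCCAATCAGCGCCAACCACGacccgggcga
Pdia6: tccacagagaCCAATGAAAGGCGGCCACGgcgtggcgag
Syvn1: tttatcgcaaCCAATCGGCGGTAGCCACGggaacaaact
The match in Hspa5 lay 65 to 47 bases before the start, in the window chr2:34771840-34772139, and that in Syvn1 lay 44 to 26 bases before it (chr19:6046326-6046625). The pair in Hsp90b1 lay 212 to 194 and 107 to 89 bases before the start (chr10:86705395-86705694).

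The compact form ERSE-II (ATTGGNCCACG), which shares the CCACG end with ERSE, was found in 2 of 32 members and in 0.0444% of all genes. No match of ERSE-II overlapped one of ERSE in these windows.
Herpud1: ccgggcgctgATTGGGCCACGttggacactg
Dnajb11: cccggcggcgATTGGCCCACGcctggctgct
The C/EBP-ATF response element (CARE; TGATGNAA, both strands), known as the site of ATF4, was found in 5 of 32 members (15.6%) and in 4.51% of all genes. Matches in Chac1, Herpud1, Nupr1 and Trib3 lie on the opposite strand, so that the capitals show the reverse complement.
Chac1: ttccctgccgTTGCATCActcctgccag
Herpud1: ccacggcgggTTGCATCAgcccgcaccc
Nupr1: aagggccagaTTGCATCAgacagggctt
Trib3: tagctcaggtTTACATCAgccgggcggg
Asns: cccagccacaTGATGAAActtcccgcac
The match in Chac1 lay 193 to 186 bases before the start (chr2:119350992-119351291). Herpud1 was the member with both an ERSE-II and a CARE match. The core of the XBP1 site (TGACGTG) was present in 1 member, Hspa5 (3.13% of members), against 2.22% of all genes. These matches describe the letters of the windows and are no measurement of binding.

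**Figure D1:**
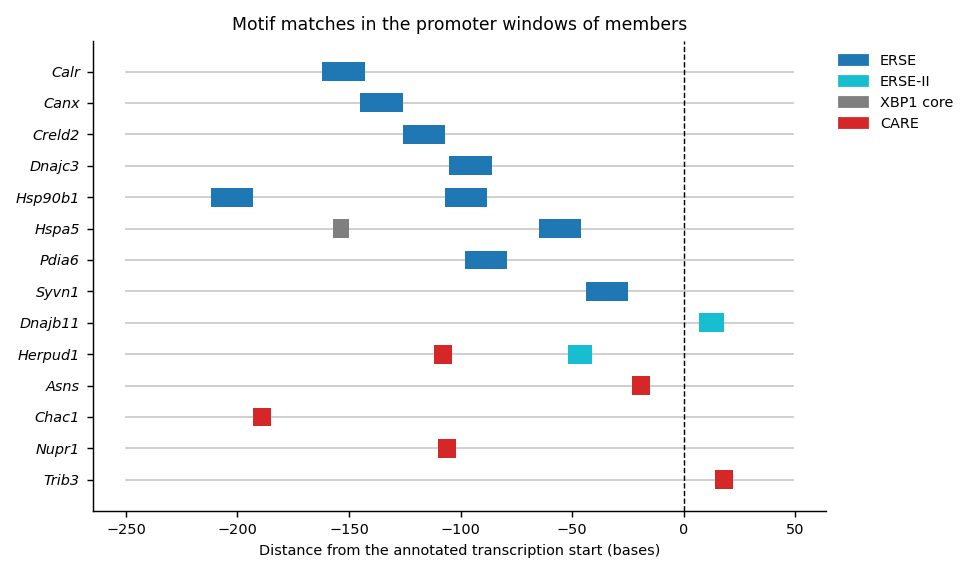
Positions of the motif matches in the 14 members that held any, as distance in bases from the annotated transcription start (dashed line). Grey lines are the windows, and bars are matches of ERSE (blue), ERSE-II (cyan), the XBP1 core (grey) and CARE (red). Matches of ERSE lay in chaperones, Pdia6 and Syvn1, and matches of CARE in Herpud1 and 4 ATF4 targets.

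Library totals ran from 2857097 to 3917207 counts. Ptk2b, the targeted gene, was at 188, 196 and 199 CPM (counts per 1000000 of the library, scaled by TMM) in WT mice 1, 5 and 6 and at 22.8, 22.2 and 20.6 in PYK2 KO mice 2, 3 and 4 (log2 fold change -3.15, SE 0.11, adjusted p = 1.03e-11 by Benjamini-Hochberg in the edgeR quasi-likelihood test), so that every library matched its label. Markers of macrophages were detected for all 11 genes listed, at a summed 29770 to 30500 CPM in WT and 30950 to 32010 CPM in PYK2 KO libraries. Among markers of B and plasma cells, a lineage whose secreting cells are rich in ER, Jchain and Mzb1 were at 0 in every library, while Sdc1 (14.7 to 19.3 CPM), Cd79b (13.8 to 23.2 CPM) and Ighm (313 to 382 CPM) were detected in all 6. The part of such cells in the levels below was not tested. Libraries also differed within genotype in genes outside the list: B2m, the light chain of MHC class I, ran from 213 to 971 CPM in WT and from 523 to 1521 CPM in PYK2 KO.

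The ER stress genes lay close to each other in the 2 genotypes. All 37 passed the filter on low counts, with 23 (Chac1 in PYK2 KO mouse 4) to 8944 (Calr in WT mouse 1) counts per library. With edgeR (quasi-likelihood test, Benjamini-Hochberg adjustment over 9815 genes), 0 members passed 0.05, against 0.255% of all genes tested, and 0 passed by DESeq2, limma-voom or edgeR's likelihood ratio test. The smallest adjusted p of a member by that quasi-likelihood test was 0.596, for Chac1. At an unadjusted p under 0.05 there were 3 members (8.11%): Ern1 and Edem1 with higher and Chac1 with lower values in PYK2 KO, against 6.03% of all genes. This count was 1 without WT mouse 5, 5 without WT mouse 1, and 2 by DESeq2. The genotypes did not overlap in 6 members (16.2%), against 10.2% of all genes, with the PYK2 KO libraries above in Manf, Pdia6, Ern1 and Edem1 and below in Ddit3 and Sesn2. The log2 fold change was above 0 in 23 members and below 0 in 14, with a median of 0.01, against 0.0019 for all genes. In bulk RNA, fewer cells with a transcript and less of it per cell cannot be told apart.

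The precision behind these values was high for most members. The 95% interval of the log2 fold change lay within 0.5 of 0 on both sides in 32 of 37 members (86.5%), against 59.6% of all genes tested. The 5 members with a wider interval were Hyou1, Pdia4, Ern1, Trib3 and Chac1, with 23 to 159 counts per library. Values are CPM and are compared between libraries, not between genes.

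**Figure D2:**
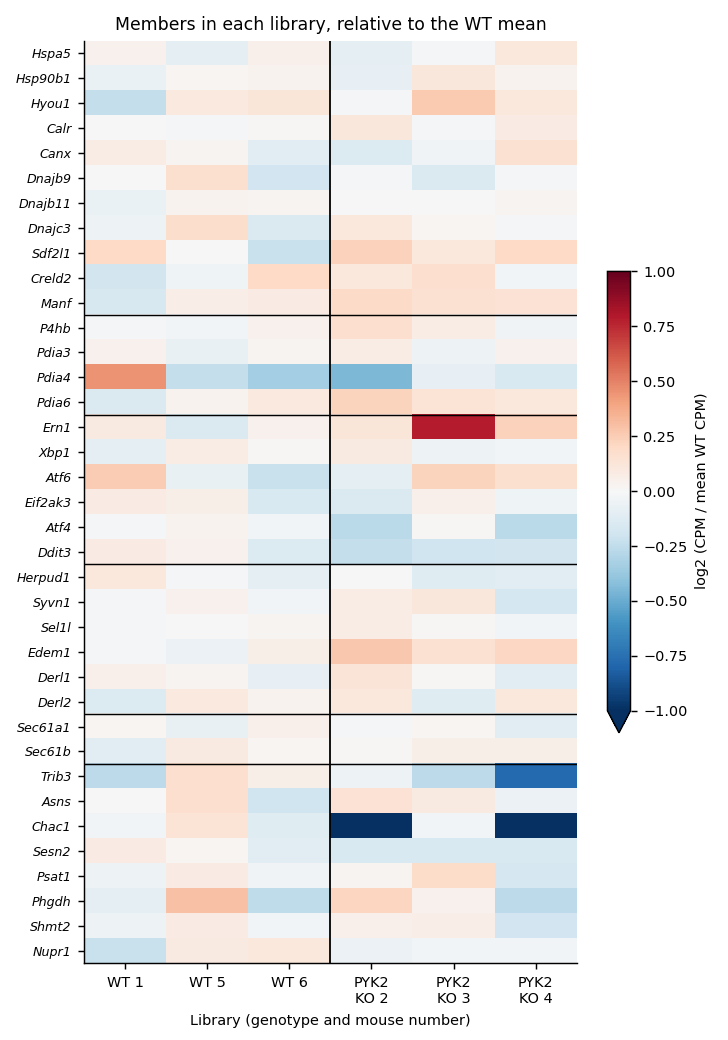
Level of each of the 37 members in each of the 6 libraries, as the log2 ratio of its CPM to the mean of the 3 WT libraries (colour; red above and blue below the WT mean). Columns are mice, and lines separate the genotypes and the groups by role. Most cells lie near 0, and the darkest are Chac1 in PYK2 KO mice 2 and 4, which lie below the end of the scale, Ern1 in PYK2 KO mouse 3 and Trib3 in PYK2 KO mouse 4.

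Among the 11 chaperones and co-chaperones, 8 had a log2 fold change above 0 and 3 below, with a median of 0.04 and none at an unadjusted p under 0.05. Hspa5 (BiP), the main Hsp70 chaperone of the ER and the usual reporter of the unfolded protein response, was at 788, 716 and 790 CPM in WT and 715, 752 and 822 CPM in PYK2 KO. The ranges overlapped, with PYK2 KO mouse 4 above every WT library. Its log2 fold change was -0.0026 with a 95% interval of -0.18 to 0.17 (edgeR quasi-likelihood fit), which corresponds to 0.884-fold to 1.13-fold. Hsp90b1 (GRP94), the ER member of the Hsp90 family, was at 689, 732 and 740 CPM in WT and 680, 779 and 737 CPM in PYK2 KO, with an interval of the log2 fold change from -0.15 to 0.19. The genotypes overlapped here too.

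Calreticulin and calnexin hold newly made glycoproteins until they are folded. Calr was at 2284, 2266 and 2311 CPM in WT and 2478, 2261 and 2415 CPM in PYK2 KO, so that PYK2 KO mouse 3 lay just below the lowest WT library and the other two lay above the WT range. The log2 fold change of Calr was 0.06 (SE 0.07). Canx was at 282, 273 and 249 CPM in WT and 244, 261 and 298 CPM in PYK2 KO, with the PYK2 KO libraries on both sides of the WT range. Its log2 fold change was -0.0037 (SE 0.09).

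The J-domain co-chaperones of BiP, Dnajb9, Dnajb11 and Dnajc3, had log2 fold changes of -0.06, 0.01 and 0.04, and all overlapped between genotypes. Dnajb9 (ERdj4), an XBP1 target, was at 55.7, 62.1 and 48.7 CPM in WT and 55.2, 50.2 and 54.8 CPM in PYK2 KO, so that the WT libraries spread more widely than the PYK2 KO ones. Hyou1 (GRP170), a nucleotide exchange factor of BiP, had 43 to 53 counts a library, and its interval of -0.27 to 0.52 was among the widest.

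Manf, a secreted ER protein that binds BiP, was at 229, 268 and 271 CPM in WT and 293, 284 and 284 CPM in PYK2 KO. All PYK2 KO libraries lay above all WT libraries, and WT mouse 1 was the lowest. The log2 fold change of Manf was 0.16 (SE 0.09, unadjusted p = 0.0758, adjusted p = 0.88 by Benjamini-Hochberg in the edgeR quasi-likelihood test), and without WT mouse 1 it was 0.09. Sdf2l1, a partner of ERdj3 in the BiP cycle, was at 96.5, 83.7 and 72.2 CPM in WT and 98.8, 90.4 and 96.9 CPM in PYK2 KO (log2 fold change 0.17, SE 0.11), with overlap. Creld2 was at 75.3, 83.4 and 98.5 CPM in WT and 92.4, 96.3 and 84.4 CPM in PYK2 KO, all of which lay within the WT range.

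Of the 4 disulfide isomerases, which form and reshuffle disulfide bonds, 3 had a log2 fold change above 0. Pdia6 was at 602, 683 and 714 CPM in WT and 780, 733 and 717 CPM in PYK2 KO, without overlap, although by a narrow margin between PYK2 KO mouse 4 and WT mouse 6. Its log2 fold change was 0.16 (SE 0.08, unadjusted p = 0.0799, adjusted p = 0.882 by Benjamini-Hochberg in the edgeR quasi-likelihood test), and 0.09 without WT mouse 1. P4hb (PDI itself) was at 798, 794 and 836 CPM in WT and 912, 850 and 789 CPM in PYK2 KO, and Pdia3 (ERp57), the partner of calreticulin and calnexin, had a log2 fold change of 0.02 (SE 0.08). Both overlapped. Pdia4 (ERp72) was at 40.6, 25.2 and 23.5 CPM in WT and 21.8, 28.1 and 26.8 CPM in PYK2 KO. WT mouse 1 stood above all other libraries in Pdia4, and the log2 fold change of -0.24 (SE 0.19) became 0.07 without it.

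Summed over the 15 chaperones and isomerases, the level was 6501, 6550 and 6720 CPM in WT and 6951, 6741 and 6900 CPM in PYK2 KO. The sums did not overlap, with means of 6590 ± 115 (SD, n = 3) and 6864 ± 110 (SD, n = 3) CPM. Without Calr, left out after its values were seen, the sums were 4217 to 4410 CPM in WT and 4473 to 4486 CPM in PYK2 KO and still lay apart. Taken relative to the library total, with no scaling factors, the sums lay apart with Calr and overlapped without it (4198 to 4403 in WT and 4393 to 4542 in PYK2 KO, per 1000000 counts). The summed macrophage markers given above lay apart in the same direction, and their part in this difference was not tested. The 8 members with an ERSE match, which are mostly the same genes, summed to 4933 to 5109 CPM in WT and 5112 to 5273 CPM in PYK2 KO, and 6 of the 8 were above 0 (median log2 fold change 0.03). The gap between these sums was small, and both as CPM and relative to library totals they overlapped once Calr was left out.

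**Figure D3:**
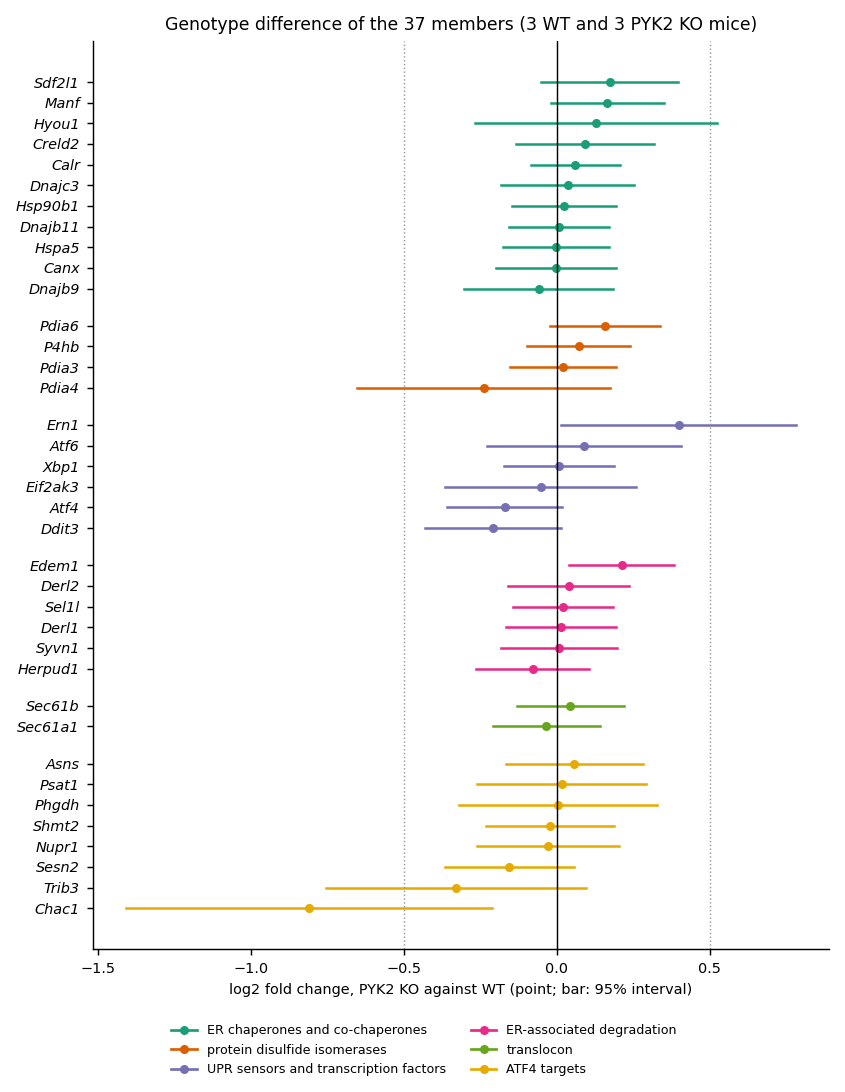
Log2 fold change of PYK2 KO against WT for each of the 37 members (points) with its 95% interval from the edgeR quasi-likelihood fit (bars; 3 mice per genotype), coloured by role. Dotted lines mark -0.5 and 0.5. Of the 37 intervals, 32 lie between the dotted lines, and those of Chac1, Ern1 and Edem1 do not include 0, before any adjustment for the number of genes.

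The sensors and transcription factors divided into 3 members above 0 and 3 below, with a median log2 fold change of -0.02. Ern1 (chr11:106394650-106487852, GRCm38), the kinase and endoribonuclease IRE1α, was at 21.5, 18.2 and 20.7 CPM in WT and 21.8, 34.6 and 23.5 CPM in PYK2 KO. The PYK2 KO libraries lay above the WT ones, by a small margin in mice 2 and 4 and a large one in mouse 3. The log2 fold change of Ern1 was 0.40 (SE 0.18, unadjusted p = 0.0422, adjusted p = 0.801 by Benjamini-Hochberg in the edgeR quasi-likelihood test), and without PYK2 KO mouse 3 it was 0.17. Xbp1, whose mRNA IRE1 splices, was at 264, 298 and 286 CPM in WT and 302, 273 and 278 CPM in PYK2 KO (log2 fold change 0.01, SE 0.08). These counts add up spliced and unspliced Xbp1.

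Atf6 was at 37.5, 30.0 and 27.0 CPM in WT and 29.5, 36.7 and 35.2 CPM in PYK2 KO, and Eif2ak3 (PERK) had a log2 fold change of -0.05 (SE 0.15) with 60 to 97 counts a library. Both overlapped between genotypes.

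Atf4 (chr15:80255184-80257541, GRCm38) was at 603, 625 and 599 CPM in WT and 506, 612 and 505 CPM in PYK2 KO. PYK2 KO mice 2 and 4 lay below every WT library, and PYK2 KO mouse 3 lay within the WT range. The coefficient of variation was 2.24% among WT and 11.4% among PYK2 KO libraries, where counting error alone gives 2.30%. The log2 fold change was -0.17 (SE 0.09, 95% interval -0.36 to 0.02, unadjusted p = 0.0712, adjusted p = 0.873 by Benjamini-Hochberg in the edgeR quasi-likelihood test), and -0.27 without PYK2 KO mouse 3. ATF4 is regulated largely at translation, which these counts do not measure.

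Ddit3 (CHOP), a transcription factor induced by ATF4, was at 64.9, 63.0 and 55.7 CPM in WT and 52.0, 53.3 and 54.0 CPM in PYK2 KO. All PYK2 KO libraries lay below the WT ones, here with mouse 3 beside the others. Its log2 fold change was -0.21 (SE 0.10, unadjusted p = 0.0623, adjusted p = 0.858 by Benjamini-Hochberg in the edgeR quasi-likelihood test).

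Of the 6 components of ER-associated degradation, 5 had a log2 fold change above 0, with a median of 0.02. Edem1 (chr6:108828641-108859356, GRCm38), a lectin that hands misfolded glycoproteins to degradation and a known target of XBP1, was at 221, 214 and 232 CPM in WT and 268, 247 and 256 CPM in PYK2 KO. All PYK2 KO libraries lay above the WT ones, and the spread within each genotype (4.04% and 4.14%) was near the 3.57% of counting error. The difference was 1.16-fold with a 95% interval of 1.03 to 1.30 (log2 fold change 0.21, SE 0.08, unadjusted p = 0.0181, adjusted p = 0.662 by Benjamini-Hochberg in the edgeR quasi-likelihood test), and it ran from 0.18 to 0.24 on the log2 scale when any 1 library was left out. It did not pass the adjusted threshold under any alternative run.

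The ubiquitin ligase pair that serves this route had nearly equal levels in both genotypes. Sel1l, the adaptor, was at 155, 157 and 160 CPM in WT and 166, 159 and 154 CPM in PYK2 KO. Syvn1 (HRD1), the ligase, was at 141, 146 and 140 CPM in WT and 150, 154 and 126 CPM in PYK2 KO. Log2 fold changes were 0.02 (SE 0.08) and 0.01 (SE 0.09). Herpud1, which binds the ligase complex and holds both ERSE-II and CARE matches, was at 138, 127 and 120 CPM in WT and 128, 118 and 118 CPM in PYK2 KO (log2 fold change -0.08, SE 0.09), with overlap. The derlins Derl1 and Derl2, which form part of the exit channel, had log2 fold changes of 0.01 and 0.04, and the translocon subunits Sec61a1 and Sec61b, which form the entry channel, of -0.03 and 0.04, with SEs of 0.08 to 0.09.

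Of the 8 ATF4 targets, Chac1 had the largest fold change of all 37 members. Chac1 (chr2:119351229-119354381, GRCm38), an enzyme that breaks down glutathione and a well-known target of ATF4 and CHOP, was at 19.4, 21.8 and 18.2 CPM in WT (76, 78 and 52 counts) and 8.34, 19.4 and 6.86 CPM in PYK2 KO (26, 56 and 23 counts). PYK2 KO mice 2 and 4 lay below every WT library, and PYK2 KO mouse 3 lay within the WT range, as it did in Atf4. The coefficient of variation was 59.4% among PYK2 KO and 9.28% among WT libraries, where counting error alone gives 13.9%. The level was 0.570-fold that of WT with a 95% interval of 0.377 to 0.863 (log2 fold change -0.81, SE 0.28, unadjusted p = 0.0104, adjusted p = 0.596 by Benjamini-Hochberg in the edgeR quasi-likelihood test).

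The call on Chac1 turned on 1 library and on the filter. Without PYK2 KO mouse 3 its log2 fold change was -1.39 with an adjusted p of 0.0151, and without the filter on low counts it was -0.82 with an adjusted p of 0.0112 (edgeR quasi-likelihood test, Benjamini-Hochberg adjusted, in both). Leaving out any other library gave -0.53 to -0.86 and no call. By DESeq2 it was -0.80, by limma-voom -0.96 and by the likelihood ratio test -0.80, each short of the adjusted threshold. Markers of neutrophils and their precursors summed to 201, 148 and 168 CPM in WT and 157, 263 and 264 CPM in PYK2 KO. Of the 8 of these 12 markers that were tested, 6 had a log2 fold change above 0 and 2 below, Camp (-0.26) and Ltf (-0.09). At an unadjusted p under 0.05 were 3 (S100a9, Mpo and Prtn3), all higher in PYK2 KO, against 6.03% of all genes. Of the 8, 0 passed the adjusted threshold by the edgeR quasi-likelihood test. Mpo, Prtn3 and Ctsg were above every WT library in all 3 PYK2 KO mice, where 10.2% of all genes did not overlap. Counts were few in Mpo (4 to 12 in WT, 11 to 21 in PYK2 KO) and Ctsg (7 to 8 and 9 to 17). The part of such cells in the values of Chac1 was not tested.

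Trib3, a pseudokinase that dampens ATF4 signalling and a target of ATF4 and CHOP, was at 16.6, 22.4 and 20.7 CPM in WT and 19.3, 16.6 and 11.6 CPM in PYK2 KO. PYK2 KO mouse 4 was below the other libraries, and the genotypes overlapped (log2 fold change -0.33, SE 0.20, unadjusted p = 0.118). The log2 fold change of Trib3 was -0.14 without PYK2 KO mouse 4 and -0.50 without PYK2 KO mouse 2. Sesn2, a leucine sensor upstream of mTORC1, was at 69.2, 66.3 and 61.0 CPM in WT and 59.0, 58.9 and 59.0 CPM in PYK2 KO. The PYK2 KO libraries lay just below the lowest WT library (log2 fold change -0.16, SE 0.10, unadjusted p = 0.136), and their spread of 0.134% was far under the 6.97% that counting error gives.

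The targets that work in amino acid synthesis had estimates near 0. Asns, which makes asparagine, was at 83.3, 93.5 and 72.6 CPM in WT and 92.1, 88.7 and 79.9 CPM in PYK2 KO, all within the WT range (log2 fold change 0.06, SE 0.11). The serine pathway enzymes Phgdh and Psat1 and the mitochondrial serine-to-glycine enzyme Shmt2 had log2 fold changes of 0.00, 0.02 and -0.02, with SEs of 0.15, 0.13 and 0.10, and overlapped in each case. Phgdh varied among mice of both genotypes, from 38.9 to 56.8 CPM in WT and from 38.8 to 53.9 CPM in PYK2 KO. Nupr1, a stress-induced chromatin protein, was at 53.9, 66.6 and 67.7 CPM in WT and 60.3, 61.7 and 61.7 CPM in PYK2 KO.

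Of the 5 members with a CARE match, 4 had a log2 fold change below 0 (Chac1, Herpud1, Nupr1 and Trib3) and 1 above (Asns), with a median of -0.08. Their summed level overlapped, at 299 to 331 CPM in WT and 278 to 308 CPM in PYK2 KO. Over all 8 ATF4 targets 3 were above 0 and 5 below, and the summed level was 395 to 453 CPM in WT and 362 to 421 CPM in PYK2 KO.

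**Figure D4:**
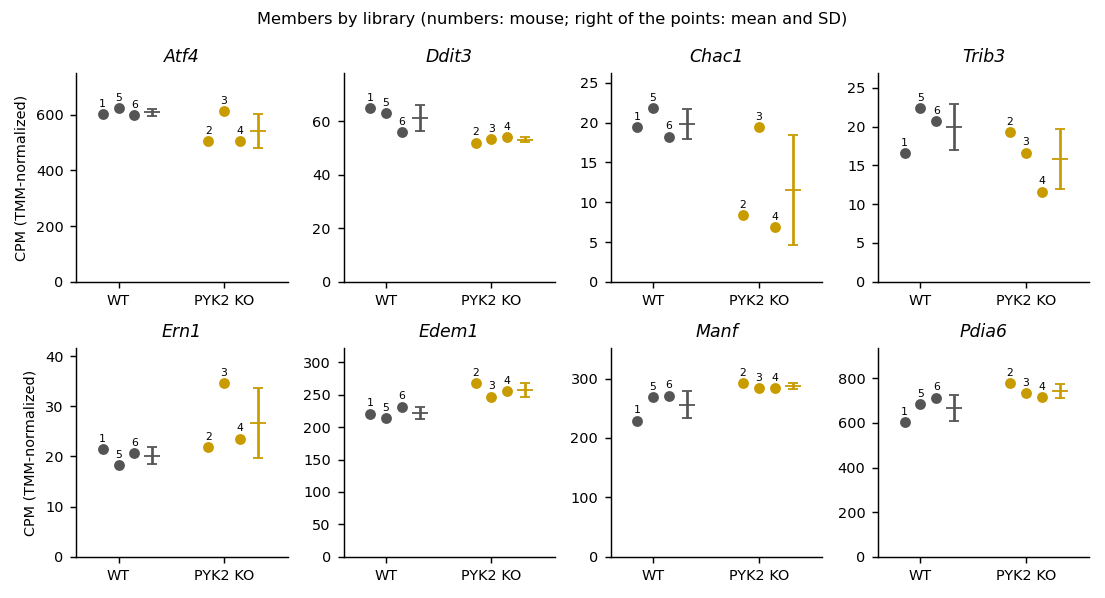
CPM of 8 members in each library (points, numbered by mouse), with the mean and SD of the 3 mice of each genotype to the right. Each vertical axis starts at 0. In Atf4 and Chac1, PYK2 KO mouse 3 lies with the WT libraries and mice 2 and 4 below them, and in Ern1 mouse 3 lies above all others. Edem1, Manf and Pdia6 lie higher and Ddit3 lower in all 3 PYK2 KO mice.

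Other genes of the same pathways, from lists set by function, were tested in the same fit, and 0 of them passed the adjusted threshold by edgeR's quasi-likelihood test. Of 151 such genes tested, 77 were above 0 and 74 below, with a median of 0.0045 on the log2 scale. The genotypes did not overlap in 17 of them (11.3%), against 10.2% of all genes. At an unadjusted p under 0.05 were 5 (3.31%), against 6.03% of all genes. The 32 other ER folding enzymes held none of these 5. Translocation, signal peptidase and N-glycosylation genes were above 0 in 24 of 34, with a median of 0.06, and their sum of 4500 to 4665 CPM in WT lay below the 4780 to 4832 CPM of PYK2 KO, also without scaling factors. The summed macrophage markers lay apart in the same direction, and their part in this difference was not tested. The signal peptidase subunits Spcs3 and Sec11a were the 2 genes of this list at an unadjusted p under 0.05, with log2 fold changes of 0.33 (SE 0.11) and 0.20 (SE 0.08). Sec11a was at 109, 104 and 118 CPM in WT and 129, 126 and 126 CPM in PYK2 KO, without overlap.

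Of the 27 other genes of ER-associated degradation tested, 8 were above 0 and 19 below (median log2 fold change -0.06), and their summed levels overlapped, at 2873 to 3016 CPM in WT and 2770 to 2921 CPM in PYK2 KO. The remaining 3 at an unadjusted p under 0.05 were among them. Ubxn6, a cofactor of the p97 ATPase, had a log2 fold change of -0.23 (SE 0.08). Erlin1, a scaffold of the ER membrane that forms a complex with Erlin2, was at 21.2, 21.6 and 21.03 CPM in WT and 18.0, 13.5 and 14.3 CPM in PYK2 KO (log2 fold change -0.48, SE 0.17). Erlin2, named after its values were seen, was at 19.2, 16.0 and 16.1 CPM in WT and 25.3, 23.9 and 21.2 CPM in PYK2 KO (log2 fold change 0.45, SE 0.16). The 2 partners thus lay apart between genotypes in opposite directions, with adjusted p of 0.611 and 0.617 by Benjamini-Hochberg in the edgeR quasi-likelihood test.

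The other regulators of the unfolded protein response and eIF2 (23 tested) and the other ATF4 and amino acid response genes (37 tested) had medians of -0.01 and -0.02 with none at an unadjusted p under 0.05. Mbtps2, the site-2 protease that cleaves ATF6, was at 23.5, 20.4 and 22.8 CPM in WT and 17.3, 18.0 and 18.2 CPM in PYK2 KO, without overlap (log2 fold change -0.32, SE 0.15). Map3k5 (ASK1), a kinase downstream of IRE1, was at 13.8, 12.0 and 11.6 CPM in WT and 16.7, 15.6 and 15.8 CPM in PYK2 KO, also without overlap (log2 fold change 0.35, SE 0.18). Among amino acid response genes the arginine transporter Slc7a1 had a log2 fold change of 0.30 (SE 0.15), and Sqstm1, the autophagy receptor p62, one of -0.14 (SE 0.08).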

How the data were processed

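BMDM RNA of 6 mice, 3 per genotype, was measured. Per the study's methods and the labels, bulk MARS-seq libraries were mapped (STAR, after cutadapt; mm10) and counted by the UTAP pipeline, and the authors deposited raw whole-number counts per gene. The annotation, the strand setting and the handling of molecular identifiers are not given in the sources used here. Read through their names, all 6 columns matched 1 mouse each.

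The genotype test was edgeR's quasi-likelihood test (version 4.0.16, R 4.3.3), after filterByExpr and TMM, with Benjamini-Hochberg adjustment over 9815 genes and a threshold of 0.05. Standard errors and 95% intervals came from the same fit, CPM from TMM-scaled library sizes. The script was tested on simulated data. Alternatives were RLE factors, library totals, no filter, at least 10 counts in every library, a likelihood ratio test, DESeq2 1.42.0, limma 3.58.1 (voom) and leaving out each library. With 3 mice against 3, a permutation of single values cannot go below p = 0.1, so none was used. Totals of 2857097 to 3917207 counts set the precision, and counting errors cover counting alone.

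Coordinates of genes are from GENCODE M21 (GRCm38, the build of mm10), in which 7 members overlap a non-coding gene and 0 a protein-coding one. As the strand setting is not given, reads of Dnajb11, Manf, Eif2ak3, Herpud1 and Sec61a1 cannot be told apart from those of a partner on the opposite strand. The partners of Sesn2 and Hsp90b1 lie on the same strand, so that no strand setting would separate reads in the shared stretch. Described were all 37 members and, from each list of other pathway genes, any gene past the threshold and otherwise the 2 with the smallest unadjusted p, plus Ptk2b and B2m. Erlin2, and the markers of other cell types given by name, were chosen after their values were seen. The members and lists were chosen with earlier results of these data known.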

Additional observations from a re-analysis of the deposited data

How the results depend on the processing

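The count of members past the adjusted threshold was 0 under RLE factors, library totals, the minimum of 10 counts, the likelihood ratio test, DESeq2 and limma-voom, 1 (Chac1) without the filter on low counts, and 0 to 1 when a library was left out, the 1 again being Chac1 (without PYK2 KO mouse 3). Over all genes the count was 25, with 159 without the filter, 45 by the likelihood ratio test and 14 to 34 when a library was left out (14 without PYK2 KO mouse 4, 15 without PYK2 KO mouse 2 and 15 without WT mouse 5). The median log2 fold change of the members ran from 0.0061 to 0.0199 under the alternatives in processing and from -0.0023 to 0.0352 when a library was left out, each a shift smaller than its SD of 0.0332 between libraries.

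Of 481 values of members under alternatives, 46 in 21 members changed sign, none of them past the threshold on either side and none larger than 0.113. Without scaling Hspa5 and Canx were both at 0.0054, and without the filter Syvn1 was at -0.0001 and Phgdh at -0.0040. When a library was left out, the log2 fold change ran from lowest to highest in Hspa5 -0.0600 to 0.0415, Hsp90b1 -0.0244 to 0.0733, Canx -0.0895 to 0.0587, Dnajb9 -0.1375 to 0.0279, Dnajb11 -0.0241 to 0.0246, Dnajc3 -0.0259 to 0.1303 and Pdia3 -0.0151 to 0.0543. The same range was Pdia4 -0.3709 to 0.0664, Xbp1 -0.0409 to 0.0477, Atf6 -0.0014 to 0.2414, Syvn1 -0.0491 to 0.0923, Sel1l -0.0073 to 0.0443, Derl1 -0.0499 to 0.0701 and Derl2 -0.0293 to 0.1097. It was Sec61a1 -0.0697 to 0.0011, Sec61b -0.0104 to 0.0904, Asns -0.0243 to 0.1499, Psat1 -0.0724 to 0.1052, Phgdh -0.1130 to 0.1765, Shmt2 -0.0675 to 0.0586 and Nupr1 -0.1325 to 0.0264. No paired analysis was possible because no replicate number occurs in both genotypes. Genes that kept their sign but moved by over 1.5 times were Chac1, Ern1, Atf4, Manf and Pdia6 (values given above), Trib3 -0.4998 to -0.1396, Sdf2l1 0.0816 to 0.2865, Creld2 0.0041 to 0.1971, Hyou1 0.0129 to 0.1881, P4hb 0.0173 to 0.1221, Calr 0.0310 to 0.0964, Herpud1 -0.1222 to -0.0218, Eif2ak3 -0.1153 to -0.0063, Hsp90aa1 0.1163 to 0.4015, Hspe1 0.0942 to 0.1796, Fkbp11 -0.6779 to -0.2184 and Sqstm1 -0.1805 to -0.0783. Of the 5 members with the widest intervals, Hyou1, Pdia4 and Trib3 had intervals that included 0, and a difference within these was not detectable. The intervals of Chac1 and Ern1 did not include 0, before any adjustment for the number of genes. Among these 5, the spread between mice exceeded counting error in Chac1 (PYK2 KO, 59.4% against 13.9%), Pdia4 (WT, 31.7% against 10.4%), Ern1 (PYK2 KO, 26.1% against 11.5%) and Trib3 (PYK2 KO, 24.5% against 13.1%).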

Other observations

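Heat shock genes of the cytosol and mitochondria, which answer to unfolded protein outside the ER, were tested beside the ER genes. Of 20 tested, 10 were above 0 and 10 below, with a median log2 fold change of -0.01, none at an unadjusted p under 0.05 and 0 past the adjusted threshold by edgeR's quasi-likelihood test. Hsp90aa1, the inducible cytosolic Hsp90, was at 68.2, 50.7 and 77.5 CPM in WT and 70.9, 76.9 and 87.9 CPM in PYK2 KO (log2 fold change 0.27, SE 0.13), with overlap. Hspe1, the mitochondrial co-chaperonin, was at 184, 178 and 194 CPM in WT and 195, 200.2 and 219 CPM in PYK2 KO (log2 fold change 0.15, SE 0.08), with every PYK2 KO library above the WT ones. In the list of other ER folding enzymes, the cargo receptor Lman1 had a log2 fold change of 0.14 (SE 0.08) without overlap, and the prolyl isomerase Fkbp11 one of -0.49 (SE 0.30) with overlap.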
